A study of Mus musculus with 6 samples.

Results

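The genes examined were the 9 DNA methylation writers and erasers Dnmt1, Dnmt3a, Dnmt3b, Dnmt3l, Uhrf1, Tet1, Tet2, Tet3 and Tdg, chosen by gene symbol from the 23353 genes of the count table, with no measured value used in the choice. RNA-seq compared day 4 embryoid bodies (D4 EBs, floating aggregates in which mouse embryonic stem cells differentiate) of the parental W9.5 line (wildtype, 3 libraries) with those of clone 14 of the same line (EVX1-Δfs, 3 libraries). Clone 14 carries small CRISPR/Cas9 frameshift deletions on both alleles in the part of Evx1 exon 2 that encodes the homeodomain, and EVX1 is a transcription factor of the primitive streak. Both genotypes were differentiated in medium with serum and without LIF. EVX1-Δfs is represented by this single clone, so the edit and any other property of the clone cannot be told apart. The replicates were started on different days, and p-values measure the spread between these 3 differentiations of 1 clone and 1 parental line.

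DNA methyltransferases place a methyl group on cytosine, mostly where it precedes guanine (CG). DNMT1 is the maintenance enzyme that copies the pattern to the new strand after replication, and UHRF1 recognises the half-methylated site and recruits DNMT1 to it. DNMT3A and DNMT3B methylate new sites, and DNMT3L is a cofactor of both without catalytic activity. TET1, TET2 and TET3 oxidise 5-methylcytosine, and the glycosylase TDG excises the oxidised products so that base excision repair can restore plain cytosine. In the mouse embryo the genome is remethylated around implantation, when the de novo enzymes are abundant in the epiblast, and TET1 and TET2 are the characteristic TET enzymes of embryonic stem cells.

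Tet1, Tet2 and Dnmt3b gave fold changes whose 95% intervals, not adjusted for the number of genes, lay above 0. At an unadjusted limma p under 0.05, 10.7% of all genes tested were higher in EVX1-Δfs. After adjustment only Tet1 passed (limma adjusted p = 0.0122, against 0.116 for Tet2 and 0.0828 for Dnmt3b). The promoter sequences of these genes are shown as a description, and no relation between sequence and fold change was tested. Each is the 250 bases before the annotated start, 5′ to 3′ on the gene's strand, from RefSeq on GRCm38.p6, with CG dinucleotides in capitals. Tet1 lies at chr10:62887325-62887574 on the minus strand, Tet2 at chr3:133544391-133544640 on the minus strand and Dnmt3b at chr2:153649199-153649448 on the plus strand.
Tet1: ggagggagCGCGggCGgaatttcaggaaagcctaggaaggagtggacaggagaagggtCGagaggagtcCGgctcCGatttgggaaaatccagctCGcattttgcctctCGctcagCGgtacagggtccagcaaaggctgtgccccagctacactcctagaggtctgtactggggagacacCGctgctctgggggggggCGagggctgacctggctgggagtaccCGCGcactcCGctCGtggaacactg
Tet2: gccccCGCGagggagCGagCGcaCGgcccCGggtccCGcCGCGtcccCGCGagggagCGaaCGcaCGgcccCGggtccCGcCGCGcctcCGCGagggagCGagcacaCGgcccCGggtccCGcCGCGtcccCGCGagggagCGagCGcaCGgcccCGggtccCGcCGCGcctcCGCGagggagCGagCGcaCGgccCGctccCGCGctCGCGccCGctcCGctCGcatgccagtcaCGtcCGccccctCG
Dnmt3b: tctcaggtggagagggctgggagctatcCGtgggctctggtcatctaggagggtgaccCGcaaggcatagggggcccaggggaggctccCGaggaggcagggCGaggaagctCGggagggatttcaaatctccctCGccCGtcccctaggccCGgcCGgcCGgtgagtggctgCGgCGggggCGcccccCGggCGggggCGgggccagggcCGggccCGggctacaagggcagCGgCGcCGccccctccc

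The stretches held 15 CG dinucleotides for Tet1, 51 for Tet2 and 21 for Dnmt3b. Over the window of 300 bases that runs on to 50 bases after the start, the Tet1 promoter had 5.67 CG per 100 bases, more than 68.6% of 32851 RefSeq promoters of that length. Tet2 had 19.0 per 100 bases, more than 99.85% of promoters, and the Dnmt3b promoter was denser than 88.3% of them. The median promoter had 2.33. The 3 Dnmt3l windows, at 1.00 to 2.00, were below that median.

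The maintenance pair Dnmt1 and Uhrf1 shared a short promoter word. Windows of all 9 genes were searched on both strands for the E2F-like words TTTGGCGC, TTTCCCGC and TTTCGCGC, which do not contain one another, and for the octamer ATGCAAAT. An E2F-like word was found in 1 of 3 Dnmt1 windows and in 1 of 2 Uhrf1 windows, and in no window of the other 7 genes. The Dnmt1 window held 2 of the words, TTTCGCGC and TTTGGCGC, and the Uhrf1 window held TTTCGCGC alone. At least 1 of the 3 words occurred in 1.85% of all promoters. The octamer, present in 1.74% of all promoters, was found in none of these windows. TTTCGCGC, held by 0.323% of promoters, occurred in both genes and is printed in capitals within 30 bases (RefSeq, GRCm38.p6). The Dnmt1 stretch, at chr9:20952824-20952853 on the minus strand, holds its reverse complement 219 bases before the annotated start of its window. The Uhrf1 stretch, at chr17:56304117-56304146 on the plus strand, holds it 185 bases before the annotated start of its window. The other annotated starts of both genes lie upstream of these stretches, so the word lies after those starts. These are matches of letters and were not tested as binding sites or for a link to the fold changes. Both windows with TTTCGCGC had 11.0 CG per 100 bases, denser than 91.4% of promoters. The share of the word among promoters of such density was not counted.
Dnmt1: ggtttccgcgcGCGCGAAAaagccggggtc
Uhrf1: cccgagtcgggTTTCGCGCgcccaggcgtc

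Levels are given as normalized counts, the reads assigned to a gene divided by 1 scaling factor per library. Reads recovered from these values numbered 7597879 to 9914471 per library. Wildtype replicate 3 stood most apart from its group, with a standard deviation of 0.257 in log2 units of its deviations from the group mean, against 0.204 to 0.222 in the other 5 libraries. For the 9 genes, where leaving it out changed a call or a direction or moved a fold change by over 1.5 times, the value without it is given. A gene was tested where 3 or more libraries reached a normalized count of 10, which kept 13136 genes and 8 of the 9 writers and erasers (Tdg fell below). Differences between the genotypes are log2 fold changes, EVX1-Δfs relative to wildtype, of the normalized count + 1, and a change was called at a limma p-value under 0.05 after Benjamini-Hochberg adjustment over all genes tested. Evx1 transcripts were at 2311 ± 119 (SD, n = 3) in wildtype and 2294 ± 258 in EVX1-Δfs, and since a frameshift need not alter the number of transcripts this is no check of the edit. Replicate numbers were taken to mark shared days. The fit with the replicate number as a block is given where it changed a call.

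**Figure D1:**
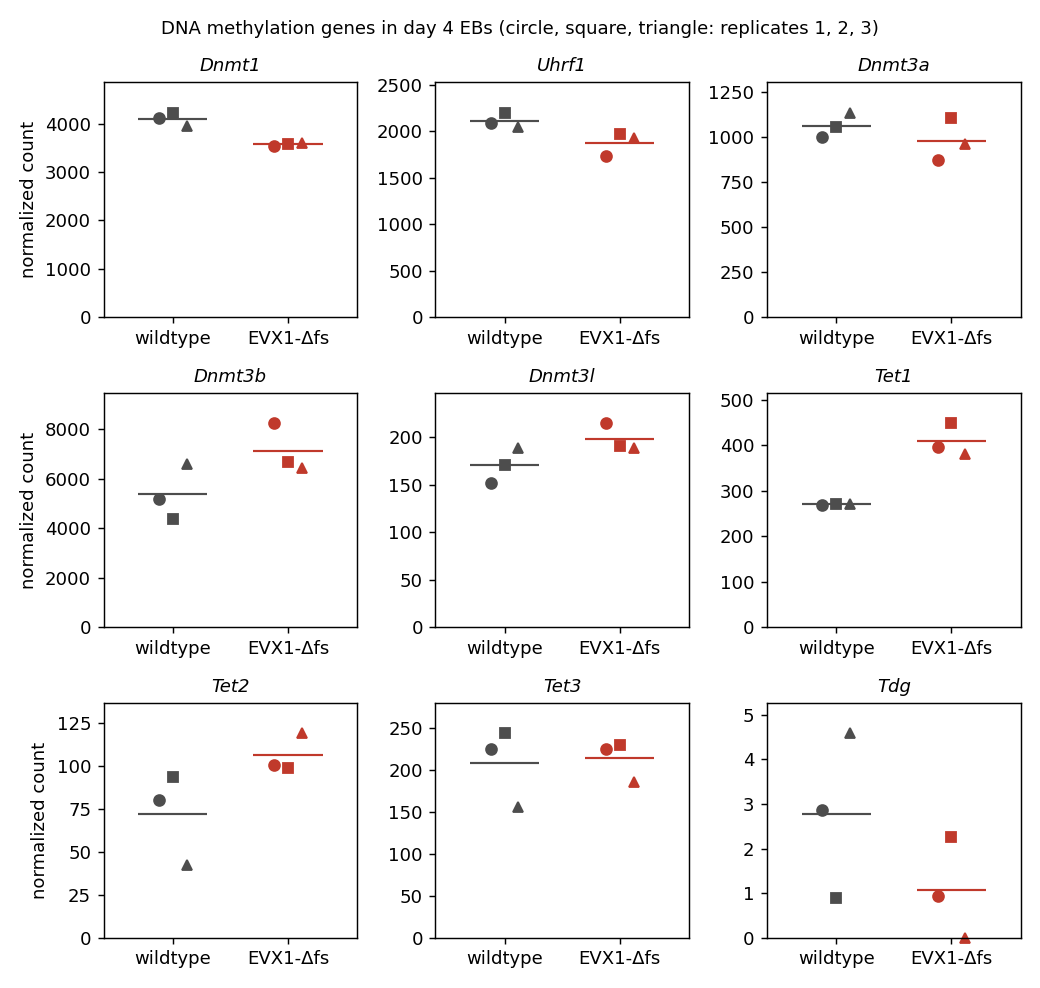
Normalized counts of the 9 genes, 1 panel per gene with its own y axis from 0, in wildtype (grey) and EVX1-Δfs (red) libraries, where circles, squares and triangles are replicates 1, 2 and 3 and lines are group means. The 3 wildtype points of Tet1 lie together near 271 and all 3 EVX1-Δfs points lie above 381, whereas the groups of Dnmt3b overlap.

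Among the 8 genes tested, 1 was called higher in EVX1-Δfs EBs and none was called lower. Over all genes tested, 5.02% were called, 2.08% higher and 2.95% lower. Upper-quartile scaling turned that balance, with 370 genes higher and 325 lower. A replicate block reduced those counts from 273 to 76 genes higher and from 387 to 146 lower, and among the writers and erasers the call of Tet1 was kept. At an unadjusted p under 0.05, 3 of the 8 passed (Tet1, Tet2 and Dnmt3b), each higher, where 23.1% of all genes tested passed and 10.7% did so with EVX1-Δfs higher. DESeq2 and edgeR's quasi-likelihood test on the recovered reads each called Tet1 alone. The median log2 fold change of the 8 genes was 0.14, beside 0.00 over all genes tested. Groups that did not overlap were seen in 2 of the 8 genes with EVX1-Δfs higher (Tet1 and Tet2) and in 2 with EVX1-Δfs lower (Dnmt1 and Uhrf1), where 12.2% and 14.7% of all genes tested did the same. In these bulk samples, fewer cells of a type and less RNA per cell cannot be told apart.

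**Figure D2:**
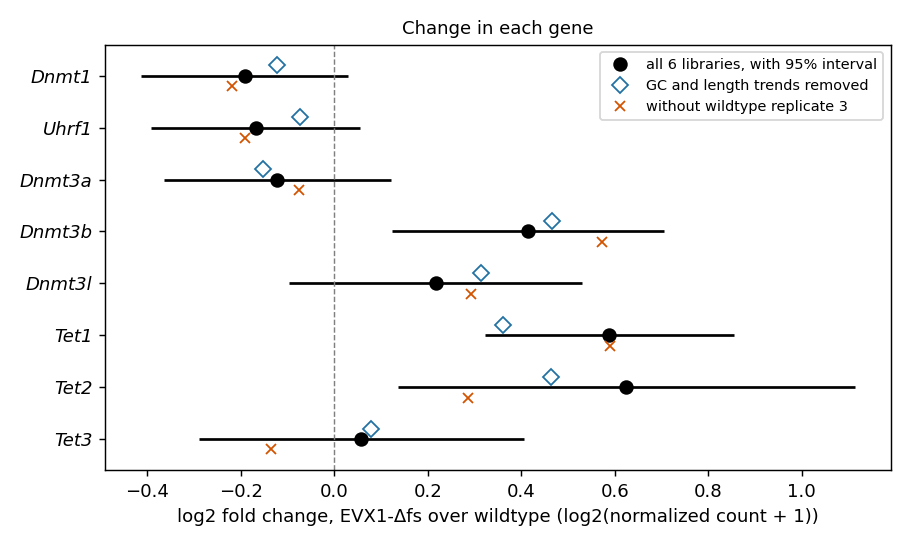
Log2 fold changes (EVX1-Δfs over wildtype, log2(normalized count + 1) scale) of the 8 genes tested, as black points with 95% confidence intervals, beside the values with GC and length trends removed (blue diamonds) and without wildtype replicate 3 (orange crosses). The intervals of Tet1, Tet2 and Dnmt3b lie above 0, the diamond of Tet1 falls to 0.36 and the cross of Tet3 lies below 0.

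Of the TET genes, Tet1 was called and Tet2 and Tet3 were not. Tet1 encodes a TET family member with a CG-binding CXXC domain and is prominent in embryonic stem cells. Tet1 was at 269.8, 271.7 and 271.4 normalized counts in wildtype replicates 1, 2 and 3 and at 396.8, 448.9 and 381.2 in EVX1-Δfs. All 3 EVX1-Δfs libraries were thus above all wildtype libraries. The log2 fold change was 0.59 ± 0.13 (SE; 95% interval 0.32 to 0.85; limma adjusted p = 0.0122), a 1.504-fold difference that was seen in 3 of 3 same-numbered pairs. The wildtype libraries lay closer to each other than reads are counted, with an SD of 1.01 where counting error alone gives 16.4, and the SE quoted is moderated over all genes. Tet1 had 237 to 425 reads per library.

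Tet1 was called in 14 of 16 alternative fits, including each fit that left out 1 library. The call was lost in the 2 fits that removed each library's trend with GC content and exon length. There the log2 fold change was 0.36, with limma adjusted p = 0.144, and 0.179 with the replicate block added. The exons of Tet1 hold 43.7% G and C, the lowest of the 9 genes. Fold changes in these libraries ran with GC content, with a Spearman rho of -0.460 (12977 genes that are not independent replicates), and the 3565 tested genes under 46% GC had a median log2 fold change of 0.19. How much of the Tet1 difference belongs to that trend was not tested beyond these fits.

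Tet2, which lacks the CXXC domain and relies on partners for its targeting, was at 80.4, 93.8 and 42.4 normalized counts in wildtype and at 100.8, 99.2 and 119.1 in EVX1-Δfs. The groups did not overlap, but wildtype replicate 3 was far below the other wildtype libraries. The log2 fold change was 0.62 ± 0.24 (SE; 95% interval 0.14 to 1.11; limma adjusted p = 0.116), as large as that of Tet1 and not called. The value rested on single libraries. Without wildtype replicate 3 it was 0.29 (limma adjusted p = 0.451), and without wildtype replicate 2 it was 0.85 (limma adjusted p = 0.0431) and called. Tet2 had 37 to 125 reads per library, and its exons hold 45.4% G and C.

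Tet3, the family member best known from the oocyte and zygote, was at 224.8, 243.4 and 155.7 normalized counts in wildtype and at 225.0, 230.1 and 185.8 in EVX1-Δfs. The EVX1-Δfs libraries lay within the wildtype range, and the log2 fold change was 0.06 ± 0.17 (SE; 95% interval -0.29 to 0.40; limma adjusted p = 0.870). Its sign changed to -0.14 without wildtype replicate 3. The interval leaves room for changes of that size in either direction.

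Tdg, the glycosylase that acts after TET oxidation, was close to absent from the count table. It had 3, 1 and 4 reads in the wildtype libraries and 1, 2 and 0 in EVX1-Δfs, or 11 reads in all, and it was not tested. The 0 allows up to 3 reads among the 8750035 of that library, or 2.86 normalized counts, for counting error only. NCBIM37 holds 4 further stretches that match the Tdg transcript at 98.6% to 99.5% identity over 50.3% to 86.4% of its length. They lie at chr15:82346686-82349711 in Gm5806, at chr7:83388071-83391005, at chr10:41772360-41775242 in the pseudogene Gm9855 and at chr19:33746768-33748526 in Lipo1. Gm9855 was listed at 0 in all 6 libraries and Lipo1 at 5.73 to 15.8 normalized counts. The Tdg count is therefore uncertain as a measure of its transcript, and the fate of reads shared with these copies was not tested.

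Of the de novo writers, Dnmt3b showed the largest difference without passing the threshold. Dnmt3b, the main de novo enzyme of the epiblast, was at 5172, 4375 and 6621 normalized counts in wildtype and at 8252, 6665 and 6441 in EVX1-Δfs. Wildtype replicate 3 lay above EVX1-Δfs replicate 3, so the groups overlapped. The log2 fold change was 0.41 ± 0.14 (SE; 95% interval 0.12 to 0.70; limma adjusted p = 0.0828). The same-numbered differences were 0.67, 0.61 and -0.04 on the log2 scale. Without wildtype replicate 3 the log2 fold change was 0.57 and called (limma adjusted p = 0.00917), and that was the only fit of the 16 alternatives in which it was called. With 4944 to 8838 reads per library, the wildtype SD of 1138 was far above the 73.2 that counting error gives.

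Dnmt3a, the paralogue that takes over as the main de novo enzyme in later tissues, was at 999.7, 1054 and 1134 normalized counts in wildtype and at 871.1, 1107 and 959.6 in EVX1-Δfs. The groups overlapped. Its log2 fold change of -0.12 ± 0.12 (SE; 95% interval -0.37 to 0.12) was not called (limma adjusted p = 0.562), and it was -0.07 without wildtype replicate 3.

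Dnmt3l, the cofactor that stimulates both de novo enzymes, was at 152.1, 170.8 and 188.9 normalized counts in wildtype and at 214.7, 190.6 and 188.7 in EVX1-Δfs. The highest wildtype library and the lowest EVX1-Δfs library coincided to within 1 normalized count. The log2 fold change of 0.22 ± 0.15 (SE; 95% interval -0.10 to 0.53) was not called (limma adjusted p = 0.405). Dnmt3a and Dnmt3l were called in none of the 16 alternatives.

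The maintenance enzyme and its recruiter were slightly lower without passing the test. Dnmt1 was at 4111, 4224 and 3945 normalized counts in wildtype and at 3542, 3590 and 3611 in EVX1-Δfs. Every EVX1-Δfs library lay below every wildtype library, with a log2 fold change of -0.19 ± 0.11 (SE; 95% interval -0.41 to 0.03; limma adjusted p = 0.288).

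Uhrf1 was at 2089, 2199 and 2043 normalized counts in wildtype and at 1739, 1974 and 1926 in EVX1-Δfs. Again the groups did not overlap, and the log2 fold change was -0.17 ± 0.11 (SE; 95% interval -0.39 to 0.05; limma adjusted p = 0.359). Both genes were lower in 3 of 3 same-numbered pairs and below 0 in all 16 alternatives, and neither was called in any of them. With GC and length trends removed the log2 fold changes were -0.12 for Dnmt1 and -0.07 for Uhrf1. Whether the word TTTCGCGC in their promoters, which 106 promoters hold, bears on these values was not tested.

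Divided by the length of the annotated exons, the levels of the 9 genes differed widely. In wildtype D4 EBs the order was Dnmt3b at 1055 ± 223 (SD, n = 3) normalized counts per kb, Dnmt1 at 778 ± 26.7, Uhrf1 at 496 ± 18.8, Dnmt3a at 63.8 ± 4.05 and Dnmt3l at 57.1 ± 6.16. The TET genes came below, with Tet3 at 18.8 ± 4.17, Tet1 at 18.4 ± 0.0689 and Tet2 at 7.84 ± 2.90, and Tdg was last at 0.517. The place of Tdg is as uncertain as its count, given its near-identical copies. In this order Dnmt3a and Dnmt3l did not differ beyond their ranges, nor did Tet3 and Tet1, and the other neighbours did not overlap. By the mean over all 6 libraries, Dnmt3b stood above 97.4% of all tested genes with an annotated length, and Tet2 above 13.5%. With the longest annotated transcript in place of all exons the order was the same.

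In EVX1-Δfs the levels per kb were 1394 ± 193 (SD, n = 3) for Dnmt3b, 680 ± 6.72 for Dnmt1 and 441 ± 29.1 for Uhrf1. Dnmt3l, at 66.3 ± 4.86, and Dnmt3a, at 58.8 ± 7.18, again overlapped. Tet1, at 27.8 ± 2.41, now lay above Tet3, at 19.3 ± 2.18, in every library, and Tet2 followed at 11.6 ± 1.2. In wildtype, Tet3 lay above Tet1 in replicates 1 and 2, at 20.3 and 21.95 against 18.3 and 18.5 per kb, and below it in replicate 3, at 14.0 against 18.4, so the overlap there rested on replicate 3.

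**Figure D3:**
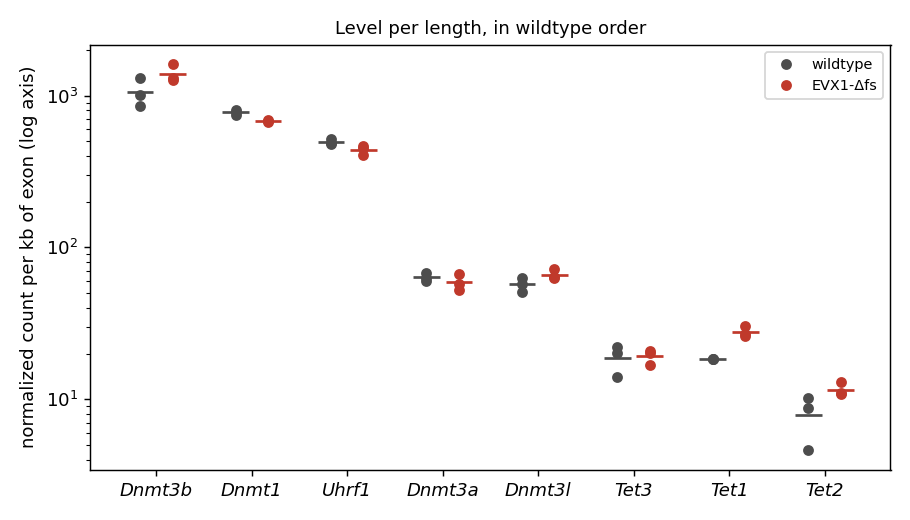
Normalized counts per kb of annotated exon on a log axis for 8 genes (Tdg is left out), ordered by their wildtype mean, with 1 point per library in wildtype (grey) and EVX1-Δfs (red) and lines at the group means. Dnmt3b, Dnmt1 and Uhrf1 lie above 400 per kb in all 6 libraries and the TET genes below 31.

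Ratios within a library do not depend on its scaling factor, and 7 were compared by exact two-sided permutation tests, for which 3 against 3 libraries cannot give a p below 0.1. Of Dnmt3a plus Dnmt3b per kb, Dnmt3b made up 94.4%, 93.1% and 95.01% in wildtype and 96.9%, 95.1% and 95.6% in EVX1-Δfs. The groups did not overlap, with a difference of 1.704 percentage points (exact permutation p = 0.1, adjusted over the 7 ratios 0.233). These shares depend on the lengths used, 16.642 kb of exon for Dnmt3a (longest transcript 9.685 kb) and 5.106 kb for Dnmt3b (longest transcript 4.32 kb). Without division by length the difference was 4.49 points.

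Of the 3 TET genes per kb, Tet1 made up 38.7%, 36.5% and 49.7% in wildtype and 46.3%, 49.2% and 46.6% in EVX1-Δfs. Wildtype replicate 3, the library with low Tet2 and Tet3, had the highest Tet1 share of all 6 libraries, and the groups overlapped, with a difference of 5.71 points (exact permutation p = 0.4, adjusted 0.700). The difference was 9.75 points without that library, where the groups no longer overlapped, and 3.13 points without wildtype replicate 2. The log2 ratio of the summed de novo writers to the summed TET genes per kb was 4.70 ± 0.511 (SD, n = 3) in wildtype and 4.69 ± 0.191 in EVX1-Δfs (exact permutation p = 0.9). The difference of -0.01 became 0.27 without wildtype replicate 3 and -0.23 without wildtype replicate 2. That of Dnmt1 to Uhrf1 was 0.65 ± 0.0182 and 0.63 ± 0.0843 (exact permutation p = 0.7).

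A further 3 ratios were chosen after the values had been seen, so their separation and p-values are a description only. Tet3 made up 42.8%, 43.4% and 37.9% of the TET genes in wildtype and 34.9%, 33.4% and 30.1% in EVX1-Δfs, with no overlap (exact permutation p = 0.1, adjusted 0.233). Tet2 made up 17.0 ± 4.06% and 19.8 ± 3.07% (SD, n = 3; exact permutation p = 0.5, adjusted 0.700). The log2 ratio of Dnmt3b to Dnmt1 per kb was 0.38, 0.09 and 0.79 in wildtype and 1.26, 0.94 and 0.88 in EVX1-Δfs. It was higher in every EVX1-Δfs library, by 0.61 on average (exact permutation p = 0.1, adjusted 0.233).

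**Figure D4:**
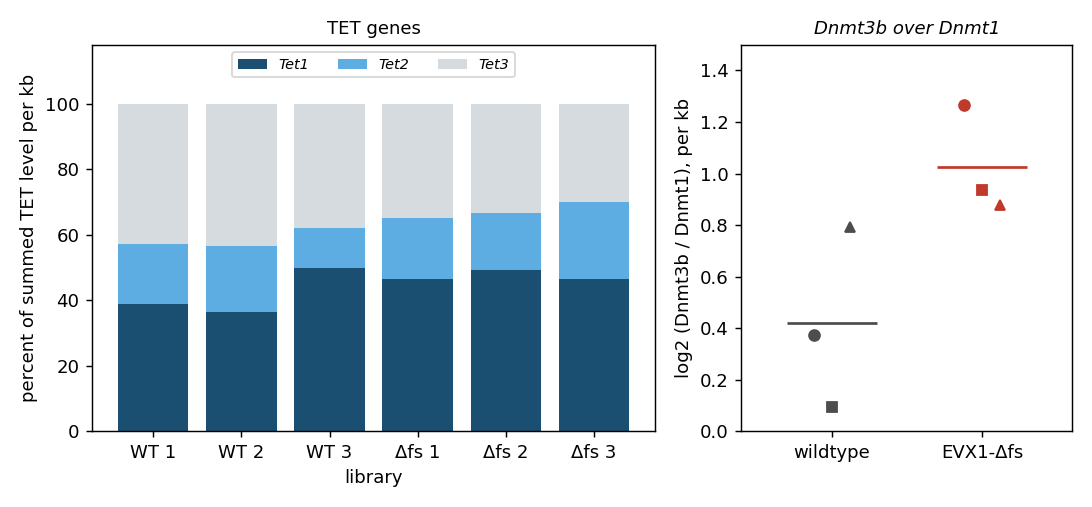
Left, shares of Tet1, Tet2 and Tet3 in the summed TET level per kb of each library, in percent, as stacked bars (WT, wildtype; Δfs, EVX1-Δfs). Right, the log2 ratio of Dnmt3b to Dnmt1 per kb in each library (circles, squares and triangles are replicates 1, 2 and 3) with lines at the group means. The Tet3 share is lower, and the Dnmt3b to Dnmt1 ratio higher, in all 3 EVX1-Δfs libraries. Both measures were chosen after the values had been seen.

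Other genes of the pathway were read from 8 lists of 103 genes in all, of which 94 were tested. The lists were written from general knowledge, with earlier results of these data known. Of the 94, 3 were called higher and 2 lower, beside the 2.08% and 2.95% of all genes, and the median log2 fold change was -0.07. With the replicate block none of the 5 was called, at limma adjusted p-values of 0.0515 to 0.0975, and none was called without wildtype replicate 3 or without EVX1-Δfs replicate 3.

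Partners of maintenance methylation (11 of 11 tested) had no called gene and a median of -0.05. Hells, the chromatin remodeller needed for normal methylation of repeats, was at 444.9, 431.0 and 446.6 normalized counts in wildtype and at 568.6, 541.3 and 608.9 in EVX1-Δfs. The groups did not overlap, and the log2 fold change of 0.38 was not called (limma adjusted p = 0.0624). It was called by DESeq2 (adjusted p = 0.0402) and with upper-quartile scaling (limma adjusted p = 0.0481), and it was 0.045 with GC and length trends removed (limma adjusted p = 0.883). Pcna, the replication clamp, was the lowest of the list at -0.15 (limma adjusted p = 0.496) and at -0.29 with those trends removed.

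Partners of de novo methylation (12 of 12 tested) had a median of 0.06 and 1 called gene. Cbx5, which encodes the heterochromatin protein HP1α, was at 748.1, 879.6 and 779.8 normalized counts in wildtype and at 1006, 1168 and 1039 in EVX1-Δfs. It rose by 0.42 (limma adjusted p = 0.0383), and the adjusted p was 0.0612 with the replicate block and 0.358 with the GC and length trends removed. The highest fold change was that of Morc1, a germline silencing gene (0.66, limma adjusted p = 0.112), and the lowest that of Ehmt2, the histone H3 lysine methyltransferase G9a (-0.39, limma adjusted p = 0.0552, and -0.24 with the trends removed). Ehmt2 was called by DESeq2 (adjusted p = 0.0289) and not by edgeR's quasi-likelihood test (adjusted p = 0.0634).

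TET partners and suppliers of the 2-oxoglutarate cofactor (11 of 12 tested) had a median of -0.07 and 1 called gene. Ogt, the O-GlcNAc transferase that binds TET proteins, was at 1638, 1601 and 1063 normalized counts in wildtype and at 1893, 1886 and 2187 in EVX1-Δfs. It rose by 0.50 (limma adjusted p = 0.0402), with wildtype replicate 3 again low, and gave 0.29 without that library. The adjusted p was 0.0975 with the replicate block. With GC and length trends removed the log2 fold change was 0.26 and not called (limma adjusted p = 0.276). Prdm14, a germ cell and pluripotency regulator that represses de novo methylation genes, had the lowest fold change at -0.43 (limma adjusted p = 0.289).

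Methyl-CpG readers, listed with related MBD and GATAD2 genes that are not all readers (12 of 12 tested), had no called gene. Their median was -0.08, with 2 of 12 above 0, beside 6575 of all 13136 genes tested. Their extremes were Zbtb33 (Kaiso) at 0.28 (limma adjusted p = 0.345), which turned to -0.020 with GC and length trends removed, and Mbd1 at -0.38 (limma adjusted p = 0.202).

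Base excision repair and GADD45 genes (16 of 16 tested) had a median of -0.09 and 1 called gene. Gadd45a, a stress-induced gene that has been linked to active demethylation, was at 135.8, 103.5 and 79.0 normalized counts in wildtype and at 137.2, 217.7 and 183.0 in EVX1-Δfs. It rose by 0.76 (limma adjusted p = 0.0323), with the lowest EVX1-Δfs library just above the highest wildtype library, and the adjusted p was 0.0856 with the replicate block. With GC and length trends removed the log2 fold change was 0.86 and called (limma adjusted p = 0.0268). With both the trends removed and the block it was not called (limma adjusted p = 0.0661). Its relative Gadd45g had the lowest fold change, -0.86, and was not called (limma adjusted p = 0.0629).

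Genes of methyl donor supply (11 of 12 tested) had a median of 0.01 and 1 called gene. Shmt2, the mitochondrial serine hydroxymethyltransferase, was at 1658, 1681 and 1944 normalized counts in wildtype and at 1306, 1485 and 1235 in EVX1-Δfs. It fell by 0.39 on the log2 scale (limma adjusted p = 0.0482), and this call was kept in 5 of 16 alternatives, with an adjusted p of 0.0930 under the replicate block and a log2 fold change of -0.24 with GC and length trends removed (limma adjusted p = 0.234). Mat2a, the S-adenosylmethionine synthetase, had the highest fold change at 0.32 (limma adjusted p = 0.0943), or 0.16 with the trends removed (limma adjusted p = 0.459).

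Germline genes that promoter methylation silences in somatic cells were close to the detection limit, with 5 of 12 tested and none called. Their median was 0.30, between Sycp3, a synaptonemal complex gene, at 0.66 (limma adjusted p = 0.366; 0.27 with GC and length trends removed) and Sohlh2, a germ cell transcription factor, at -0.23 (limma adjusted p = 0.750). Sycp3 ran from 5.31 to 20.5 normalized counts over the 6 libraries.

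S phase genes, listed because Dnmt1 and Uhrf1 are themselves expressed with replication, had 16 of 16 tested, 1 called lower and a median of -0.21. In 6 of the 16 the groups did not overlap with EVX1-Δfs lower, beside the background of 14.7%. Gins2, a subunit of the replicative helicase, was at 1067, 960.1 and 1240 normalized counts in wildtype and at 850.5, 695.8 and 771.8 in EVX1-Δfs. It fell by 0.49 (limma adjusted p = 0.0240), and the adjusted p was 0.0515 with the replicate block and 0.0768 with GC and length trends removed. Ccne2, a cyclin of the G1 to S transition, was highest at 0.24 (limma adjusted p = 0.420) and turned to -0.10 with GC and length trends removed.

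**Figure D5:**
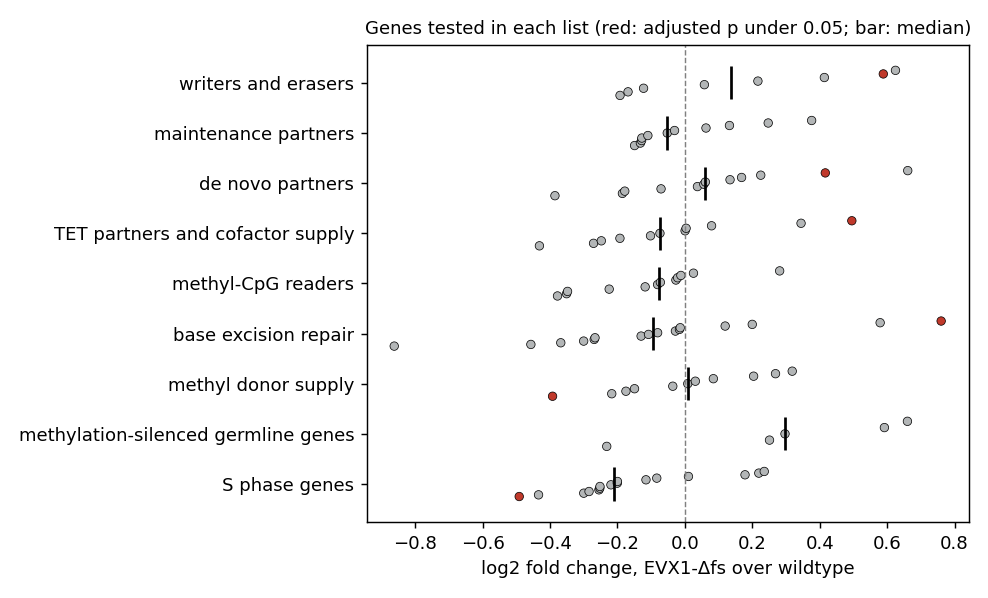
Log2 fold changes (EVX1-Δfs over wildtype) of the tested genes of the writers and erasers and of each of the 8 other lists, 1 point per gene, with called genes in red and each median as a black bar. The writers and erasers hold 1 called gene, Tet1, and the medians lie between -0.21 and 0.30.

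Cell type markers moved with genotype, and their part in the Tet1 and Dnmt3b values was not tested. Of 9 markers of nascent mesoderm, 8 were called lower and none higher, beside 2.95% and 2.08% of all genes tested. Their summed normalized count was 12562 to 15231 in wildtype and 8085 to 10223 in EVX1-Δfs. Of 9 haematoendothelial markers, 4 were called lower, with sums of 3326 to 4361 in wildtype and 1936 to 2231 in EVX1-Δfs. Naive pluripotency markers (10 of 10 tested) had 1 called higher (Tfcp2l1) and 1 lower (Tbx3), with 9 of 10 fold changes above 0, a median of 0.35 and sums of 4027 to 4538 and 4033 to 4431. In 6 of the 10 the groups did not overlap with EVX1-Δfs higher, beside 12.2% of all genes tested. Tbx3 alone ran from 1621 to 2280 in wildtype and from 1074 to 1173 in EVX1-Δfs. Without Tbx3, which was left out after the values were seen, the other 9 summed to 2258 to 2406 and 2860 to 3327. Primed epiblast markers (7 of 7 tested) had 1 higher (Fgf5) and 2 lower (Sox3 and Lef1), with sums of 2601 to 3396 and 2785 to 3330. Markers of pluripotent cells and of mesoderm were thus present in both genotypes, with less overall signal for the mesoderm in EVX1-Δfs.

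Anterior endoderm markers (7 of 7 tested) had 3 called higher (Cer1 with a log2 fold change of 3.49, Foxa2 with 1.09 and Sox17 with 0.91) and 1 lower (Cxcr4 with -0.78). Their sums of 3286 to 6065 and 4449 to 5465 overlapped and were mostly Trh. Without Trh, also left out after the values were seen, the other 6 summed to 442.0 to 683.6 and 720.4 to 1030. Germ cell markers (6 of 7 tested) had none called and 4 fold changes above 0, with sums of 849.6 to 965.4 and 999.2 to 1069. The largest part of the sums was Kit, at a mean of 465 in wildtype and 589 in EVX1-Δfs. Prdm1 was lower, at a mean of 84.8 in wildtype and 59.3 in EVX1-Δfs. Visceral endoderm and neurectoderm markers were near the floor, with 1 of 7 tested in each and sums of at most 56.4 normalized counts. Fibroblast markers (4 of 7 tested) had 1 called lower, with sums of 632.1 to 814.1 and 598.8 to 655.6.

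The genes whose levels ran most like those of Tet1 over the 6 libraries, among 10622 candidates, were 0610009D07Rik (Pearson r = 0.99), Zfp365 (r = 0.99) and Tbca (r = 0.99). As many as 192 candidates had an r above 0.9, and the 6 points fall into the 2 genotypes, so this likeness is a description only. 0610009D07Rik averaged 277 normalized counts in wildtype against 418 in EVX1-Δfs, a log2 fold change of 0.59 (limma adjusted p = 0.0102), whereas Zfp365 (0.41, limma adjusted p = 0.122) and Tbca (0.34, limma adjusted p = 0.121) were not called.

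In the GENCODE vM1 annotation of NCBIM37, the assembly of mm9, Tet1 lies on chromosome 10 from 62267318 to 62361866 and Tet2 on chromosome 3 from 133126643 to 133207354, both on the minus strand, with Tet3 on chromosome 6 from 83312367 to 83391672, also minus. Dnmt3b lies on chromosome 2 from 153475186 to 153513466, Dnmt3a on chromosome 12 from 3806007 to 3914443 and Dnmt3l on chromosome 10 from 77504692 to 77526367, all on the plus strand. Dnmt1 (minus strand) lies on chromosome 9 from 20711650 to 20757317, Uhrf1 on chromosome 17 from 56442744 to 56462909 and Tdg on chromosome 10 from 82092573 to 82113544, the last 2 on the plus strand. Their counts can be shared with other loci to different degrees. Beside Tdg, the Uhrf1 transcript has a copy on chromosome X over 71.9% of its length at 97.7% identity (the pseudogene Gm5648), Dnmt3b one over 30.8% at 96.4% (Gm14490) and Tet2 one over 3.53% at 94.1%. Dnmt1, Dnmt3a, Dnmt3l, Tet1 and Tet3 have none of at least 300 bases and 90% identity. Exons overlap a gene on the opposite strand over 133 bases in Dnmt3a (Gm10485), 67 in Dnmt3l (Aire) and 367 in Tdg (Glt8d2).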

How the data were processed

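Selected mRNA of 3 wildtype and 3 EVX1-Δfs D4 EB samples was sequenced on an Ion Proton. The authors aligned reads to mm9 (TopHat2, then TMAP), assigned them to genes with HTSeq under its default options and used DESeq2. Versions and the gene annotation are not given in the sources used here. The table the authors deposited holds a never-negative signal, read counts divided by 1 factor per library, although it was named counts. All values (100%) were whole reads within 0.01 after division by the library's smallest step.

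Because the values were not raw counts, limma (3.58.1, mean-variance trend, R 4.3.3) was run on log2(normalized count + 1), after a filter of at least 10 in at least 3 libraries and with Benjamini-Hochberg adjustment over 13136 genes. This scale understates changes of low genes. DESeq2 (1.42.0) and edgeR's quasi-likelihood test (4.0.16) on the recovered reads were alternatives, as were pseudocounts of 4 and 16, TMM and upper-quartile scaling, no filter beyond 1 read, a replicate block, removal of GC and length trends (natural splines, 5 degrees of freedom), and leaving out each library. The limma, DESeq2 and edgeR fits were tested on simulated data that held no GC or length trend and no day effect. That test therefore does not cover these features of the libraries. Genes were matched to GENCODE vM1 by symbol (94.3%). The genes, lists and tests were chosen with earlier results of these data known. Named in the text were the 9 genes, each list's highest, lowest and called genes, the 3 genes most like each called member (mean of at least 50) and Evx1. Markers named as called, the sums without Tbx3 and Trh, and the 3 added ratios were chosen after their values were seen.

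Replicates were started on different days and genotypes side by side per the study's methods, so the number was taken to mark a shared day. Deviations of same-numbered libraries correlated at 0.11, 0.01 and -0.10 across genes.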

Additional observations from a re-analysis of the deposited data

How the results depend on the processing

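Counts were low for Tdg, with 11 reads in all, and for Tet2, with at most 125 reads per library. For Tdg, the part of depth and that of reads shared with its copies was not tested. Of 128 values for the 8 tested writers and erasers under 16 alternatives, 123 kept direction and side of the threshold; of 270 for the other named genes 220 did. Without 1 library, Tet3 ran from -0.14 to 0.18, Pcna from -0.26 to 0.0032 and Sohlh2 from -0.48 to 0.12 on the log2 scale. With GC and length trends removed, with or without the replicate block, Zbtb33 turned to -0.020 and Ccne2 to -0.10.

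Over all genes, the counts called higher and lower (273 and 387) became 76 and 146 with the replicate block, 101 and 182 with GC and length trends removed, and 69 and 131 with both. Without 1 library they ran from 77 to 332 and from 138 to 355. The 1 writer or eraser called higher became 0 in both fits with trends removed and 1 to 2 without 1 library. The pathway genes called higher and lower (3 and 2) became 0 and 0 with the replicate block, 1 and 0 with trends removed, 0 and 0 with both, and 0 to 3 and 0 to 2 without 1 library. Called lower were 4 with DESeq2 and 1 each with edgeR, with upper-quartile scaling and with all genes that had a read. The replicate block changed the call of no writer or eraser (Tet1 adjusted p = 0.0388, limma). The Dnmt3b share differed by 4.49 points without division by length. The cause of these changes was not tested.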
